A study of Mus musculus with 2 samples.

Results

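The H2 genes are the mouse genes of the major histocompatibility complex (MHC). They were taken as all non-control probes of both arrays whose gene name began with "H2-", which gave 41 genes of the 24323 named genes on the array. These genes were measured by 55 probes on 73 spots per array. Of the 41 genes, 13 had more than 1 probe and 28 had a single probe. All 50 H2 probes for which the files gave a position lay on mouse chromosome 17 (build mm9).

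Tooth RNA and skin RNA of wild-type mice (postnatal day 0) were each read on 1 single-colour Agilent array, and both arrays lay on the same slide. No allele or treatment was named in the labels, the study's methods gave C57BL/6J as the wild-type strain, and the number of animals behind each array was not stated. The methods described the tissues as tooth germ and skin at a stage later by a day than the label, and the label was followed. With 1 array per tissue no test could be run, no p-value is given, and no difference below has a replicate check.

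MHC class I molecules are carried by most nucleated cells. A class I heavy chain pairs with beta-2 microglobulin in the endoplasmic reticulum, receives a peptide made by the proteasome and carried in by the TAP transporter, and shows it to CD8 T cells. MHC class II molecules are pairs of an alpha and a beta chain found mainly on dendritic cells, Langerhans cells, macrophages and B cells, where the invariant chain Cd74 guides them to endosomes and H2-DM exchanges its remnant for peptides shown to CD4 T cells. The nonclassical class I genes of the Q, T and M regions encode more specialised molecules, several of them ligands of natural killer or gamma-delta T cells.

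To show motifs upstream of class I and class II genes, the upstream stretches of 6 H2 genes are given here. They comprise the classical class I gene H2-D1, 3 nonclassical class I genes and the class II genes H2-Aa and H2-Eb1. Each is the 180 bases that precede an annotated RefSeq start (build GRCm38.p6), written 5′ to 3′ on the gene's own strand. Capitals mark matches to a kappa B site (GGGATTCCC), an interferon response element (GTTTCACTT) and the letters CTGATTGG on either strand. These letters, called Y box below, contain the reverse complement of CCAAT, and a class I match need not be the gene's Y box.
H2-D1: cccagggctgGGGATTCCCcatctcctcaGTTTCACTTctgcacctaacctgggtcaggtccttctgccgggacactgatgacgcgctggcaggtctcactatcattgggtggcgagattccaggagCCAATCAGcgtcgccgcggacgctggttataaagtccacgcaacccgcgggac
H2-Q7: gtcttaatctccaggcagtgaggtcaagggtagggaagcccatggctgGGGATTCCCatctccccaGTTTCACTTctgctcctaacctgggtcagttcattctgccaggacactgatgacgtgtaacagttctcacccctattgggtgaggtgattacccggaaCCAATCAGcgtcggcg
H2-T23: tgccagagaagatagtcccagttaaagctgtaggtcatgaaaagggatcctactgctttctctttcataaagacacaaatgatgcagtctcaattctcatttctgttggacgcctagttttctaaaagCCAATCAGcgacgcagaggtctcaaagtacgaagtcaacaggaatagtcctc
H2-Q10: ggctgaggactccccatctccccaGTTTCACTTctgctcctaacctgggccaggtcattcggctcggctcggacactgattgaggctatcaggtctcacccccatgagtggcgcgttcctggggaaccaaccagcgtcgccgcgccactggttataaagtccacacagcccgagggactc
H2-Aa: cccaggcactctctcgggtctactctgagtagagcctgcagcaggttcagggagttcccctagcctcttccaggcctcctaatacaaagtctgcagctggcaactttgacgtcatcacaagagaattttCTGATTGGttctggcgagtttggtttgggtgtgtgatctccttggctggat
H2-Eb1: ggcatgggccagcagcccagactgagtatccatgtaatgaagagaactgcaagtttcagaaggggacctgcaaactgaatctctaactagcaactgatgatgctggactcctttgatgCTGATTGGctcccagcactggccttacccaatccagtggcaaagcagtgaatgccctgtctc
The stretches lie at chr17:35262914-35263093 (plus strand) for H2-D1, chr17:35438975-35439154 (plus strand) for H2-Q7, chr17:36032702-36032881 (minus strand) for H2-T23, chr17:35469909-35470088 (plus strand) for H2-Q10, chr17:34287824-34288003 (minus strand) for H2-Aa and chr17:34305687-34305866 (plus strand) for H2-Eb1.

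H2-D1 and H2-Q7 held all 3 motifs in the same order, with the kappa B site first, the interferon element next and the Y box nearest to the start. H2-T23 held the Y box without exact matches to the other letters, and H2-Q10 held the interferon element alone. H2-Aa and H2-Eb1 held the Y box letters on the strand opposite to that of the class I matches. H2-D1 and H2-Q7 also held attggg upstream of that match, with attgg on the strand of the class II matches. Which stretch is the Y box of these class I genes was not tested. Over windows from 250 bases before to 50 bases after each start, the Y box was found in 16 of the 30 H2 genes with a window (53.3%) and in 4.07% of 32544 windows over the genome. The kappa B letters were found in 4 of the 30 H2 genes (H2-D1, H2-K1, H2-Q6 and H2-Q7) and in 0.353% of all windows. The interferon element was found in 8 of the 30, all of them class I genes, and in 0.399% of all windows. Of the 16 genes with a window whose RNA was well above background, 6 held the Y box, 4 the kappa B site and 7 the interferon element. Of the 14 genes with a window that were not above background, the counts were 10, 0 and 1. The 10 dim genes with a Y box included 7 of the M region, so this motif stood upstream of genes with and without a measured signal. These counts rest on exact matches and describe the letters of the windows.

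Genes of this complex are close copies of each other, and their probes were compared for shared sequence. Among 1485 pairs of H2 probes, 4 pairs from different genes overlapped by at least 30 bases with at most 15% mismatches. The pairs that link H2-Q10 with H2-Q2 and H2-Q6 with H2-T23 are shown, with the bases that differ in capitals.
H2-Q10 probe: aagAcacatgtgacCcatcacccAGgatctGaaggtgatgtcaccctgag
H2-Q2 probe: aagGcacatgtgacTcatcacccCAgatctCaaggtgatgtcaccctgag
H2-Q6 probe: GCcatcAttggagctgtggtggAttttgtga
H2-T23 probe: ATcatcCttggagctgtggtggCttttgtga
The first stretch spans 50 bases with 5 mismatches, and the second 31 bases with 4 mismatches. The H2-Q10 probe lies at chr17:35610036-35610095 and the H2-Q2 probe at chr17:35460007-35460066 (mm9, plus strand), while the H2-Q6 probe lies at chr17:35565247-35565306 on the plus strand and the H2-T23 probe spans chr17:36167338-36167574 on the minus strand. The other 2 pairs linked the H2-Q7 probe with both probes of H2-K2. Probes were compared with each other and not with the transcripts of other genes, so a probe without such an overlap need not be specific. The values of the H2 genes are therefore uncertain where a near-identical transcript can bind the same probe. The part that such binding had was not tested.

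The values below are log2 signals relative to the 75th percentile of the array's probes, so that 0 is the level of that percentile, and a difference is skin minus tooth on the log2 scale. Where a gene had several probes, the brightest over both arrays stood for it. A signal was taken as measured when the extraction software called it well above background on that array. Of the 41 H2 genes, 24 (58.5%) were measured on at least 1 array, against 71.6% of all named genes. The measured genes comprised 17 of 29 class I genes, 5 of 10 class II genes and both Ke genes. H2-M3 was measured in the tooth only, and the other 23 genes on both arrays. Probe levels of different genes depend on the probe and were not compared.

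Most H2 genes that were measured differed little between the tissues, with a shift towards skin. H2-Ab1 and H2-Eb1 were at least 2-fold higher in the skin, a share of 2 of 24 genes where the background was 14.2% of all measured named genes. None of the 24 was at least 2-fold higher in the tooth, where the background was 15.5%. Of the 23 genes measured on both arrays 21 stayed within 2-fold, against 76.2% of all named genes measured on both arrays. In 16 of the 24 the skin value was higher by any amount (background 47.6%). The median difference over the 24 genes was 0.43, from -0.47 (H2-T10) to 1.69 (H2-Eb1), while the median over all 17409 measured genes was -0.04. The median was 0.47 in the class I genes and 0.84 in the class II genes. The latter is the value of H2-Ob, read at 1 of its 3 probes, and the 5 measured class II genes ran from -0.08 to 1.69.

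The direction depends on how the arrays are scaled. When the arrays were scaled on spike-in transcripts instead, all genes shifted by -0.62, the H2 median became -0.20 and 10 of 24 H2 genes were higher in the skin. Scaling on the median of each array shifted all genes by -0.25 and gave an H2 median of 0.18. The distance between the H2 median and the median of all genes was 0.47 under all 3 of these scalings, since each moves every gene alike. Directions below are therefore relative to the 75th percentile of each array. Of the 16 genes higher in skin, 10 were higher in skin under each of 9 alternative ways of processing, namely H2-D1, H2-Q2, H2-Q5, H2-Q6, H2-Q7, H2-Q10, H2-T23, H2-Ab1, H2-Eb1 and H2-Ob. Some of these values were small under spike-in scaling, at 0.07 for H2-Q7, 0.09 for H2-Q2 and 0.13 for H2-D1. The first 2 are below the scatter of single spots (an SD of 0.11 for a difference). Not all 9 alternatives could change a direction. The alternatives on filters and dim values leave a gene measured on both arrays as it is. The mean of probes leaves a gene with 1 probe as it is. The authors' table shifted all genes by only 0.02. Of the 8 genes higher in tooth, 1 (H2-Ke2) was so under every alternative.

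**Figure D1:**
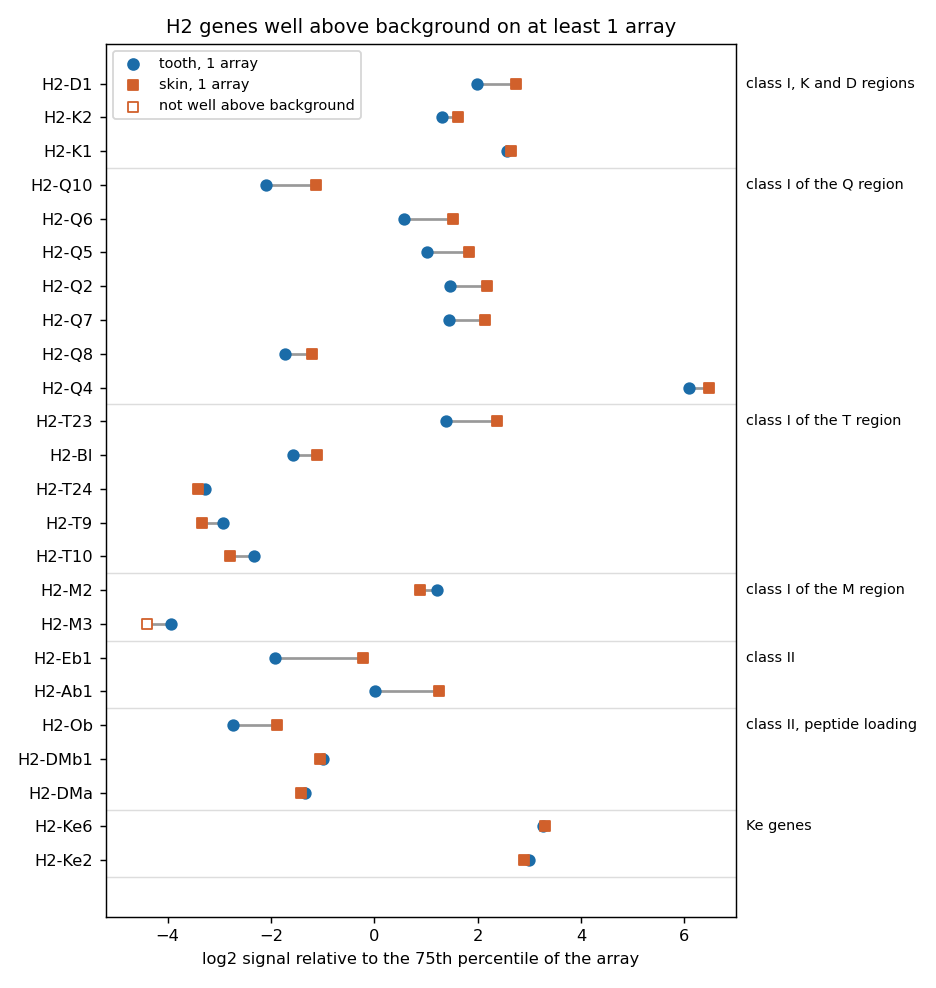
Log2 signal relative to the 75th percentile of the array (horizontal axis) for the 24 H2 genes well above background on at least 1 array, grouped by class, with a circle for the tooth array and a square for the skin array. The open square marks H2-M3, which was not well above background in the skin, and only the 2 symbols of a gene can be compared with each other. All 7 Q genes have the skin square to the right of the tooth circle.

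**Figure D2:**
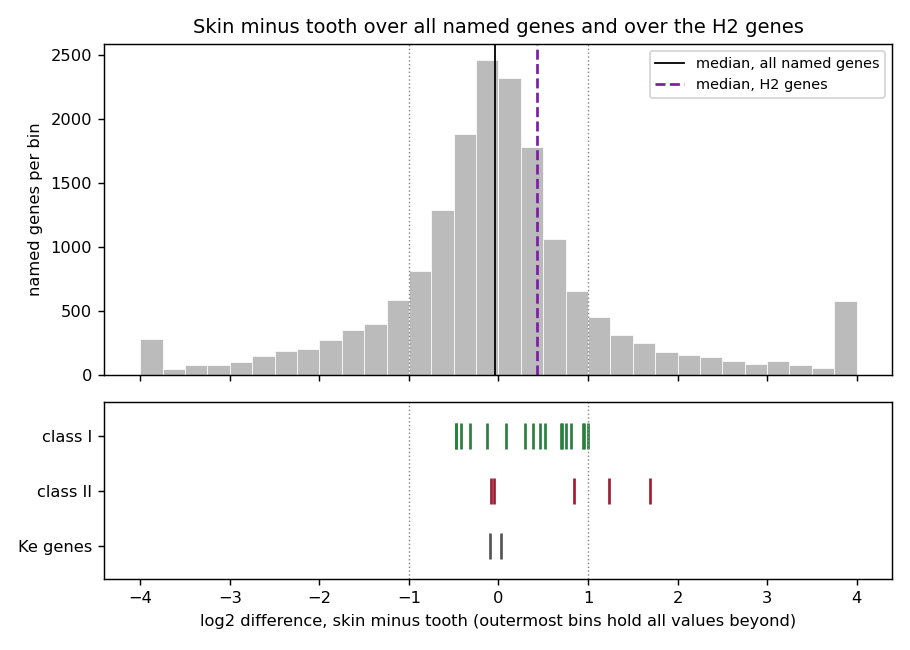
The upper panel shows the number of named genes in each bin of the skin minus tooth difference (log2), with the median of all genes (-0.04) and of the H2 genes (0.43) as vertical lines; the lower panel marks each measured H2 gene. Dotted lines stand at a 2-fold difference, which 2 class II genes exceed towards skin.

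The classical class I genes gave bright signals in both tissues. H2-D1, a classical heavy chain that presents peptides to CD8 T cells, had a deposited intensity of 1694 in the tooth and 1843 in the skin. On the scaled log2 axis its value was 1.98 in the tooth and 2.74 in the skin, a difference of 0.75 or 1.69-fold. H2-D1 was thus higher in the skin, by less than 2-fold.

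H2-K1, the other classical heavy chain of this strain, was read by a probe with 10 spots and by one with a single spot. The first probe, at chr17:34133055-34133114 (minus strand), gave 2.56 in the tooth and 2.65 in the skin, with an SD among its spots of 0.07 on each array. Its difference was 0.08. The second probe, at chr17:34133984-34134043, gave 1.03 in the tooth and 1.90 in the skin, a difference of 0.86. The 2 probes therefore disagreed by 0.78 on the same 2 RNA samples. In the 3241 named genes with exactly 2 measured probes, the median of such gaps was 0.26 and their 90th percentile was 0.94. The direction of H2-K1 was not settled, since its brightest probe turned towards tooth under 3 of the 9 alternatives.

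H2-K2, which RefSeq lists under a non-coding accession, had 1.32 in the tooth and 1.61 in the skin at its brighter probe. The difference was 0.29 there and 0.39 at its other probe, and it turned towards tooth under spike-in scaling (-0.33).

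The Q region genes were higher in the skin in all 7 measured cases (background 47.6%), with a median difference of 0.72 and a range from 0.39 to 0.96. Under spike-in scaling 2 of them, H2-Q4 and H2-Q8, turned towards tooth. Whether the 7 are separate readings was not tested, since 1 transcript may bind the probes of several close copies. H2-Q6 and H2-Q7 encode Qa-2, a nonclassical class I molecule anchored in the membrane by a lipid. H2-Q6 had 0.57 in the tooth and 1.51 in the skin, a difference of 0.94. H2-Q7 had 1.43 in the tooth and 2.13 in the skin, a difference of 0.70.

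H2-Q4 reached an intensity of 29087 in the tooth and 24513 in the skin, and no spot of an H2 probe was saturated. Its scaled value was 6.09 in the tooth and 6.47 in the skin, a difference of 0.39. The raw intensity of H2-Q4 was thus lower in the skin and its scaled value higher, because the 75th percentile of the signal stood at 428 in the tooth and at 276 in the skin.

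H2-Q2 had 1.47 in the tooth and 2.19 in the skin at its brighter probe (chr17:35482113-35482172), a difference of 0.72. The second probe named H2-Q2 (chr17:35460007-35460066) gave 0.61. It lies nearer to the H2-Q1 probe (chr17:35461859-35461918) than to the first H2-Q2 probe, and which gene it reads was not tested. H2-Q5 had 1.02 in the tooth and 1.83 in the skin, a difference of 0.81. H2-Q8 had -1.73 in the tooth and -1.20 in the skin, a difference of 0.52. H2-Q10, known as a secreted class I molecule made mainly by the liver, had -2.09 in the tooth and -1.13 in the skin at the probe that overlaps the second H2-Q2 probe. Its other probe, at chr17:35611449-35611508, stayed under that call in both tissues. The 2 probes of H2-Q10 thus differed in whether they gave a signal, and the part of binding by other Q gene RNA in the first was not tested. The probe named H2-Q1 was not well above background in either tissue.

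In the T region 5 of 7 genes were measured, 2 higher in skin (background 47.6%) and 3 higher in tooth. H2-T23 encodes Qa-1, which presents peptides cut from the leaders of other class I chains to inhibitory receptors of natural killer cells. Its intensity was 1112 in the tooth and 1435 in the skin, and its scaled value was 1.38 in the tooth and 2.38 in the skin. At 1.999-fold the difference fell just short of 2-fold, and it passed 2-fold with quantile normalization and in the authors' own value table. It was lower under 3 other settings, with a log2 difference of 0.75 under median scaling, 0.38 under spike-in scaling and 0.87 with normexp. Of the 17 measured class I genes, H2-T23 had the largest difference as scaled here. The H2-T23 probe spans more bases in mm9 than its own 60, as it would over an exon junction.

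H2-Bl, a nonclassical class I gene named for blastocysts, had -1.57 in the tooth and -1.11 in the skin, a difference of 0.47. H2-T10, a ligand of gamma-delta T cells, had an intensity of 85.1 in the tooth and 39.6 in the skin, and the scaled difference was -0.47. H2-T9 had -2.93 in the tooth and -3.34 in the skin, a difference of -0.41. H2-T24 had -3.29 in the tooth and -3.41 in the skin, a difference of -0.12 at one probe, and its other probe was not above background. The 3 T genes higher in tooth were all dim, with intensities of at most 39.6 in the skin, and all 3 turned towards skin when the background was corrected with normexp (0.03 to 0.15). H2-T3 and H2-T18, the thymus leukaemia antigen genes, were not above background on either array.

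In the M region 2 of 11 genes were measured, the smallest share of the class I groups. H2-M3, which presents peptides that start with N-formyl methionine, had -3.93 in the tooth and was not well above background in the skin (-4.40). The lowest signal called well above background in the skin was -3.73, which lies above the tooth value, so no fold can be given. H2-M2 had 1.20 in the tooth and 0.89 in the skin at a probe with 10 spots in the tooth and 9 in the skin, after 1 outlier spot was left out. Its difference was -0.31, with SDs among spots of 0.06 and 0.08. The other H2-M2 probe, at chr17:37618042-37618101 and assigned to the RefSeq transcript, was not above background on either array, so only 1 of its 2 probes gave a signal. The bright probe belongs to an Ensembl transcript at chr17:37618259-37618439. H2-M1, H2-M5, H2-M9, H2-M11 and the 5 H2-M10 genes, some of which are known from vomeronasal sensory neurons, were not above background in either tissue.

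The class II genes held both H2 differences past 2-fold. H2-Eb1, the beta chain of the I-E molecule, had an intensity of 113 in the tooth and 236 in the skin. Its scaled value was -1.92 in the tooth and -0.23 in the skin, a difference of 1.69 or 3.23-fold. H2-Ab1, the beta chain of I-A, had an intensity of 430.2 in the tooth and 654 in the skin. Its scaled value was 0.01 in the tooth and 1.24 in the skin, a difference of 1.24 or 2.35-fold.

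A second probe of H2-Ab1 gave -0.08 in the tooth, 1.24 in the skin and a difference of 1.32. It starts 9 bases further on and shares 51 bases with the first at 1 mismatch, so it is a repeat reading of nearly the same sequence. H2-Ab1 fell below 2-fold under median scaling (0.99) and under spike-in scaling (0.61). H2-Eb1 kept a difference of at least 1.07 in all 9 alternatives.

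H2-Aa, the alpha chain that pairs with H2-Ab1, was not called well above background in either tissue. Its intensity was 4.57 in the tooth and 24.5 in the skin, and its scaled value -6.55 in the tooth and -3.50 in the skin. The skin value was not called, although the lowest signal called well above background in the skin was -3.73. No fold is given for it, because neither value was measured, and probes dim on both arrays differed by a median of 0.76 on the scaled axis. H2-Ea-ps, the I-E alpha chain locus that is not functional in the b haplotype carried by this strain, was not above background, and neither was H2-Eb2.

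As scaled here, the measured genes for peptide loading of class II molecules differed less between the tissues than H2-Ab1 and H2-Eb1 did. H2-DMa had -1.34 in the tooth and -1.41 in the skin, and H2-DMb1 had an intensity of 214 in the tooth and 133 in the skin. Their scaled differences of -0.08 and -0.05 were below the scatter of single spots (an SD of 0.11 for a difference), and both turned towards skin with normexp background correction. Under spike-in scaling H2-DMa (-0.70) and H2-DMb1 (-0.67) differed by more in size than H2-Ab1 (0.61) did. H2-Ob, a chain of H2-DO that restrains H2-DM, had -2.73 in the tooth and -1.89 in the skin at one probe, a difference of 0.84. Its other 2 probes were not above background on either array. H2-DMb2 and the H2-DO alpha chain H2-Oa were not above background.

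H2-Ke6 and H2-Ke2 lie in the complex without presenting antigen. H2-Ke6, a hydroxysteroid dehydrogenase, had 3.26 in the tooth and 3.29 in the skin. H2-Ke2, which RefSeq names Pfdn6 and which encodes a prefoldin subunit, had 2.99 in the tooth and 2.89 in the skin. Their differences of 0.03 and -0.10 were below the scatter of spots as scaled here, and became -0.59 and -0.72 under spike-in scaling. H2-Ke6 turned towards tooth under 3 of the 9 alternatives.

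The other genes of antigen presentation were read from lists that served to place the H2 genes. Of 9 genes for class I assembly and loading, 3 were higher in skin (background 47.6%) and 6 in tooth, with a median of -0.37. Among those 3, Erap1 (0.07) was not well above background in the skin. B2m, the light chain of every class I molecule, had 3.96 in the tooth and 3.20 in the skin, a difference of -0.76. Tap1, a subunit of the peptide transporter, had -3.33 in the tooth and -2.15 in the skin, a difference of 1.18. Its partner Tap2 had 0.82 in the tooth and 0.75 in the skin, a difference of -0.07. Calr and Pdia3, chaperones of the class I loading complex and of many other glycoproteins, were more than 2-fold higher in the tooth (-1.04 and -1.14).

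The proteasome genes of antigen processing were higher in skin in 5 of 6 cases (background 47.6%), with a median of 0.38 and a range from -0.29 to 0.50. Under spike-in scaling all 6 were lower in skin, by values from -0.91 to -0.12. Nlrc5, the transactivator of class I genes, was measured in the skin only (-2.94) at the brighter of its 2 probes. As scaled here it was at least 2.98-fold higher there. The difference of 2.38 at that probe became 0.89 with normexp, below 2-fold, and 1.76 under spike-in scaling. The mean over both Nlrc5 probes gave 1.06, well under the value of the brighter probe. All these values were towards skin. Irf1, an interferon-induced activator of class I genes, had 1.63 in the tooth and -0.45 in the skin, a difference of -2.08 at the brighter of its 2 probes. The mean over both probes gave -0.67.

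For class II, 4 of 5 chaperone and processing genes had a higher skin value (background 47.6%), and the median was 0.48. Of these, Ctss and Ctsl turned towards tooth under spike-in scaling (-0.14 and -0.24). Cd74, the invariant chain, had -2.65 in the tooth and 0.22 in the skin, a difference of 2.87. Ifi30, a thiol reductase of endosomes, had 1.92 in the tooth and 3.27 in the skin, a difference of 1.35 (0.73 under spike-in scaling). Ciita, the master activator of class II genes, was dim, with -3.32 in the tooth and -2.72 in the skin. Its difference of 0.60 became -0.02 under spike-in scaling. As scaled here, Cd74, H2-Eb1 and H2-Ab1 were the class II genes more than 2-fold higher in skin along with Ifi30. The measured H2-DM genes differed by less than the spot scatter as scaled here, and by -0.70 and -0.67 under spike-in scaling.

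Of the 10 class I-like genes encoded outside the complex, 9 were measured and 7 were higher in the tooth, 6 of them by at least 2-fold (background 15.5%). Cd1d2 was at the threshold and fell short of it in the authors' table (-0.99) and with normexp (-0.66), where Mr1 also fell short (-0.56). Cd1d1, which presents lipids to natural killer T cells, had 2.48 in the tooth and 0.17 in the skin, a difference of -2.31. Hfe, a regulator of iron uptake, had 1.22 in the tooth and -0.78 in the skin, a difference of -2.01. Mill1 was measured in the skin only and was at least 7.73-fold higher there as scaled here, a log2 difference of 2.95 that became 2.33 under spike-in scaling and 1.45 with normexp. The class I-like genes had a median of -1.10, and the class I H2 genes one of 0.47. Genes that lie in the same complex without an H2 name had a median of -0.01 over 13 measured, from -2.63 (Ltb, a lymphotoxin chain) to 2.36 (Hspa1a, a heat shock protein).

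**Figure D3:**
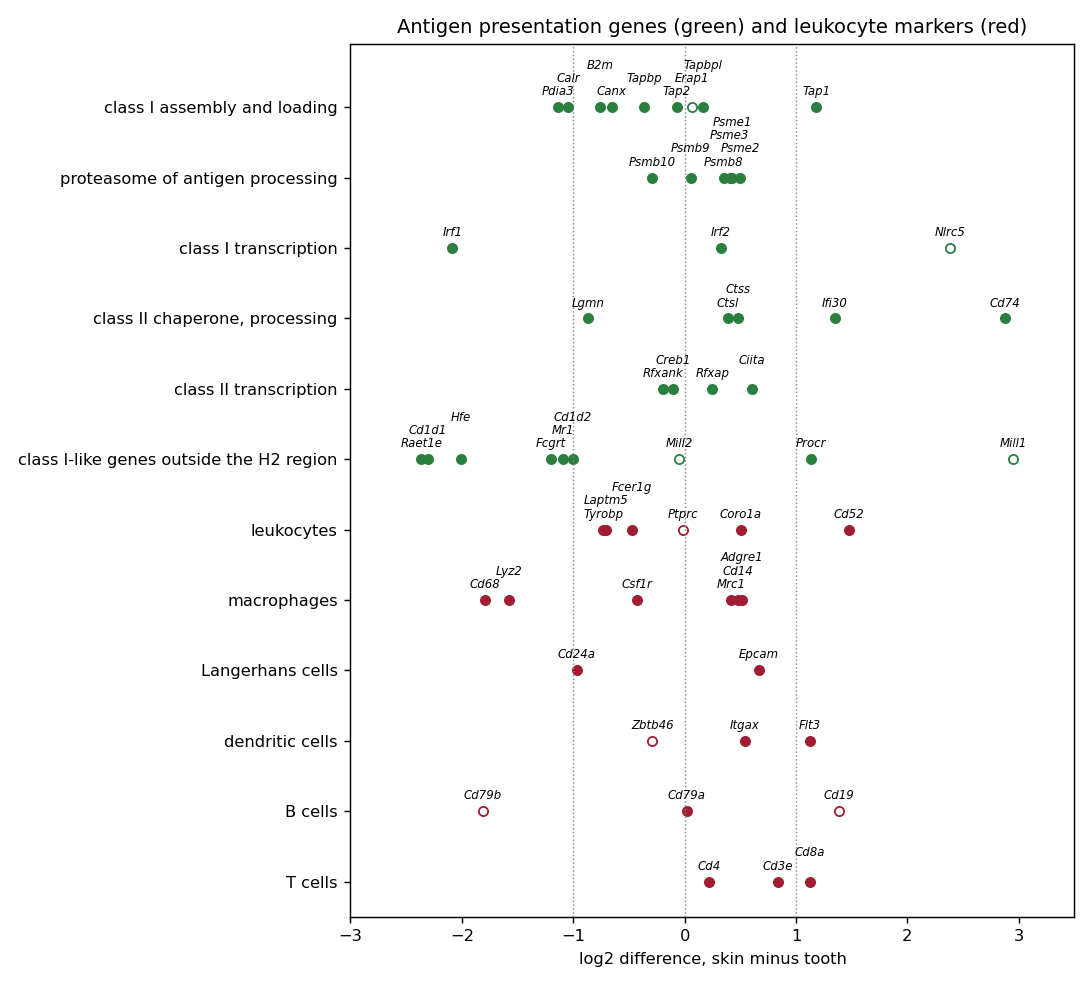
Skin minus tooth difference (log2, horizontal axis) of each antigen presentation gene (green) and leukocyte marker (red) measured in at least 1 tissue, by list. Open circles were measured in 1 tissue only. Cd74 lies at 2.87 and B2m at -0.76, and the leukocyte lists hold genes on both sides of 0.

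Class II genes are carried by few cell types, so markers of these cells were read beside them. In bulk tissue, fewer cells of a type and less RNA per cell cannot be told apart. Of the 6 general leukocyte markers 2 were higher in skin (background 47.6%) and 4 in tooth. Their summed level on the linear scale was 11.3 in the tooth and 10.3 in the skin. Cd52 (1.48) was at least 2-fold higher in the skin (background 14.2%), and none of the 6 was so in the tooth. Ptprc, which encodes CD45, was near the limit of detection (-3.65 in the tooth, and not well above background in the skin at -3.67). Of 6 macrophage markers 3 were higher in skin and 3 in tooth. Cd68 (-1.79) and Lyz2 (-1.58) were at least 2-fold higher in the tooth (background 15.5%), and none was so in the skin. The summed level of the 6 was 27.4 in the tooth and 18.4 in the skin. Such a sum weights each gene by the brightness of its probe, and Csf1r (4.30 in the tooth and 3.87 in the skin) made up most of this one.

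Cd207, which encodes langerin and defines mature Langerhans cells, was not above background on either array. The other 2 genes on that list, Epcam and Cd24a, are also carried by other epithelial cells. Of 5 dendritic cell markers 3 were measured, among them Itgax (-2.09 in the tooth and -1.55 in the skin) and Flt3 (-3.50 and -2.38). The third, Zbtb46, was measured in the tooth only (-3.91, against -4.20 in the skin), while Xcr1 and Ccr7 were not above background. The summed level of this list was 0.45 in the tooth and 0.63 in the skin. Of 5 B cell markers Ms4a1 and Pax5 were not above background, and the summed levels were 0.71 and 0.63. All 3 measured T cell markers were higher in skin (background 47.6%), with summed levels of 14.6 and 20.5. The difference of Cd4 (0.22) was smaller than the shift of spike-in scaling. Cd3e (2.46 in the tooth and 3.29 in the skin) and Cd4 (3.18 and 3.40) made up most of that sum. Cd8a, also on this list, was dim (-3.93 in the tooth and -2.80 in the skin), and Cd3g was not above background on either array. Which cells gave the Cd3e and Cd4 signals was not tested. The leukocyte lists thus had no common direction, and their part in the class II and Cd74 differences was not tested.

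Both tissues carried their own defining markers. All 4 epidermal markers were higher in the skin, by 8.39 to 12.89. All 4 ameloblast and both odontoblast markers were well above background in the tooth and not in the skin, with bounds from at least 63.9-fold for Dmp1 to at least 16383-fold for Amelx.

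**Figure D4:**
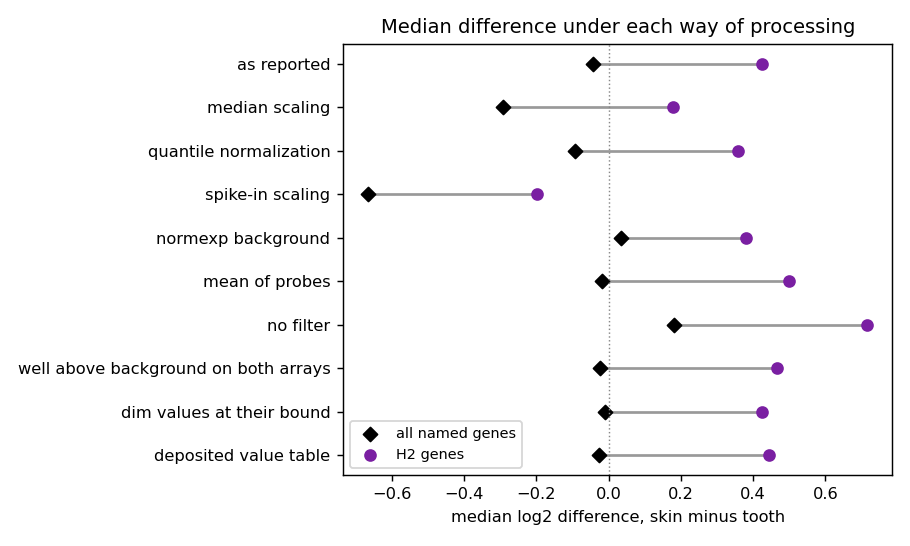
Median skin minus tooth difference (log2, horizontal axis) of the H2 genes (circles) and of all named genes (diamonds) as reported and under 9 alternatives. The H2 median lies to the right of the median of all genes in every line, and it is below 0 under spike-in scaling alone (-0.20).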

How the data were processed

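RNA of 1 tooth and 1 skin sample was measured on single-colour (Cy3) Agilent SurePrint G3 mouse arrays. Intensities, linear and per spot, were deposited as Agilent Feature Extraction 10.7.3.1 wrote them, a tool that the submitters' processing notes also name. Per the file headers they had been background-subtracted and detrended, and surrogates replaced very dim spots (22.8% of the non-control spots in the tooth and 25.5% in the skin). The table the authors deposited beside them held, for each spot, a ratio of this intensity to a single factor, 431 in the tooth and 275 in the skin. GeneSpring was named in the study's methods.

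Outlier spots (137 and 146) were left out, spots of a probe were averaged as log2 intensity, and the 75th percentile over the 55675 probes was subtracted per array. Of these probes, 56.7% were well above background in the tooth and 52.5% in the skin, by more than 50% of their spots. Where a probe was not well above background on 1 array, a bound was computed against the lowest signal called so on that array (-4.52 in the tooth, -3.73 in the skin) or the probe's own value, whichever was higher. List medians and counts used dim values as measured. A 2-fold difference was a description, not a test. Spot scatter came from probes with at least 8 spots (279 and 269), with median SDs of 0.08 and 0.09, and it leaves out variation between animals, preparations and arrays.

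Names followed the array, and 44 of 55 H2 probes matched a RefSeq symbol by accession. Probe positions are those of the files (mm9), and promoter positions those of RefSeq (GRCm38.p6). No position was converted, and the exon or UTR under a probe was not analysed here. Named were all measured H2 genes and members of the lists. The H2 genes, gene lists, motifs and alternatives were chosen with earlier results of these data known. The alternatives were median, quantile and spike-in scaling (8 spike-ins), normexp background correction with an offset of 50 (limma 3.58.1), the mean of a gene's probes, no filter, a filter on both arrays, dim values at their bound, and the authors' table. Python 3.11.15, pandas 2.3.3 and R 4.3.3 were used, and the steps were tested on simulated data.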

Additional observations from a re-analysis of the deposited data

How the results depend on the processing

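The number of arrays limits the precision, and no alternative stands in for a second animal. Against an H2 median of 0.43, counts past 2-fold of 2 (skin) and 0 (tooth), a class I median of 0.47 and a class II median of 0.84, median scaling gave an H2 median of 0.18, 1 gene in skin (H2-Eb1), a class I median of 0.22 and a class II median of 0.59. Spike-in scaling gave -0.20, 1 gene in skin (H2-Eb1), 3 in tooth (H2-M3, H2-T9 and H2-T10), -0.16 and 0.22. H2-M3 was not well above background in the skin, so its place in that count rests on a dim value. These scalings shift every gene by 1 amount, and the share of skin among all genes past 2-fold went from 47.8% to 36.6% with median and 21.8% with spike-in scaling. Without a filter the H2 median was 0.72, the class I median 0.72 and the counts 5 in skin and 1 in tooth, since surrogate values of dim probes then entered. The class II median, again the value of H2-Ob, was 0.67 with quantile normalization and 0.68 with normexp. The cause was not tested. Other medians and counts moved by less than the spot scatter or 1.5 times, and quantile normalization and the authors' table added H2-T23 to the skin genes. With the mean of all probes, H2-M2 turned to 0.56 and H2-T24 to 0.23, as their dim probes then counted. No paired analysis was possible because each tissue had 1 array.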
